A study of Homo sapiens with 10 samples.

Results

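S3 is 1 of 6 transcriptional states (C and S1 to S5) that the authors gave to single cells of an ovarian cancer line taken through rising doses of the PARP inhibitor olaparib. Its members are the cells whose state is S3 in the authors' deposited cell table. There were 588 of them among the 8240 cells that the table lists (7.14%), and the deposited matrix holds 18209 cells in all. S3 was present at 10, 20, 40 and 80 µM, with 146 cells in the 10 µM population (T10), 149 in T20, 221 in T40 and 72 in T80, so the largest number came from T40. S3 cells stood apart from the other listed cells of the same population by high FLG, KRT19, LYPD1, PTGDS and kallikrein transcripts and by low CYP1B1, EMCN, BOC and TGF-beta target transcripts.

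Kuramochi is a human line from a high-grade serous ovarian carcinoma, labelled here as epithelial and BRCA2-mutant. All populations carry that genotype, and they come from 1 dose escalation. The populations were untreated cells (C) and cells kept in 1, 2.5, 5, 10, 20, 40, 80, 160 or 320 µM olaparib until they were confluent (T1, T2.5, T5, T10, T20, T40, T80, T160 and T320). Each population was profiled as 1 library by inDrop, a droplet method that tags each RNA molecule with a unique molecular identifier (UMI), so there were no replicate libraries at any dose.

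PARP enzymes mark broken DNA and help recruit its repair. Cells that lack homologous recombination, a pathway of DNA break repair that needs BRCA2, usually die when PARP is blocked. Epithelial cells are held together by keratin filaments, desmosomes and claudins, and carcinoma cells can hold epithelial and mesenchymal transcripts at the same time. TGF-beta signalling is known to lower epithelial genes and to raise matrix and contractile genes.

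The label of the deposited cell table holds g1, which may stand for the G1 phase of the cell cycle. Beyond that label, the sources used here do not give how the authors chose the listed cells or assigned the states. The states were presumably drawn from the same transcripts, so every gene difference between S3 and other cells below is a description and carries no test. UMI counts were summed over the cells of a state in a library and scaled to a common library size, as CPM (counts per 1000000 UMIs). A difference is that of log2(CPM + 10) between S3 and the other listed cells of the same library, and a gene was measured where it had at least 100 UMIs over all listed cells and at least 50 CPM on either side. A gene under 50 CPM on one side was measured only through its level on the other, so it could differ in that direction alone. A gene counted as higher or lower when it differed at least 2-fold, a log2 difference of 1. The S3 sums held 319166 UMIs in T10, 506588 in T20, 552622 in T40 and 247943 in T80, with a median of 2099, 3359, 2309 and 3277.5 UMIs per cell. Intervals given for folds and shares are exact 95% intervals that cover counting error only. In each library, every gene not at 0 had UMIs in at least about 1% of the cells, so 0 CPM over a whole library is not a measured absence. Where other cells of the library held the gene, 0 CPM means that no UMI was counted in that group.

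The promoters of 4 genes that separated S3 are shown because FLG, LYPD1 and KLK6 are members of the high set and BOC of the low set, and because each holds one of the motifs searched. They are the 250 bases before the start site in RefSeq on GRCh38.p14, 5′ to 3′ on the gene's own strand. Capitals mark the E-box CAGGTG (or CACCTG on the other strand), which ZEB and SNAI repressors bind, and the AP-1 motif TGANTCA.
FLG: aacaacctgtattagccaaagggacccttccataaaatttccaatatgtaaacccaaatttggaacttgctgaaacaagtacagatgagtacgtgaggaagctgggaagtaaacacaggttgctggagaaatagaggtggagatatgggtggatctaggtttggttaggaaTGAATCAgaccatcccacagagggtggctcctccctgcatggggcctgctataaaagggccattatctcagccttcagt
LYPD1: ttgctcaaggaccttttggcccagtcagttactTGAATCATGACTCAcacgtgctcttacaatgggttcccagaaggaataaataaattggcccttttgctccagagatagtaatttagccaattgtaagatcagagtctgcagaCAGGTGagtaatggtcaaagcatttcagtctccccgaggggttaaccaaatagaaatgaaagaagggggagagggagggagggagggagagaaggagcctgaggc
KLK6: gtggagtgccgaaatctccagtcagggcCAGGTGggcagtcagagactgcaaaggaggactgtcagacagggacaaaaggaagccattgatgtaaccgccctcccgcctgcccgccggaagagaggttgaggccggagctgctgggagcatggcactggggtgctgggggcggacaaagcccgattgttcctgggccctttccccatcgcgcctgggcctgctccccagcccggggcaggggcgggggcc
BOC: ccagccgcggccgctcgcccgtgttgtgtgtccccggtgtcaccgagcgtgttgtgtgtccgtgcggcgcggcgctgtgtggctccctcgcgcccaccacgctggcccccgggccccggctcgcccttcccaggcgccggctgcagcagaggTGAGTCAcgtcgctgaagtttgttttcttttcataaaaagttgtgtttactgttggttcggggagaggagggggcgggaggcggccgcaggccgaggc
These stretches lie at chr1:152325240-152325489 (minus strand), chr2:132671527-132671776 (minus strand), chr19:50969592-50969841 (minus strand) and chr3:113211866-113212115 (plus strand). LYPD1 holds a pair of AP-1 motifs side by side and an E-box, KLK6 an E-box, and FLG and BOC 1 AP-1 motif each. The motifs were searched on both strands in the 300 bases from 250 before to 50 after each start. The E-box was in 20.6% of all 35116 promoters, in 14.6% of the 2888 promoters of genes measured in T10 and T20, in 15 of the 72 promoters (20.8%) of genes higher in S3 of both libraries and in 12 of the 82 (14.6%) of genes lower in both. AP-1 was in 7.71% of all promoters, 4.36% of those of measured genes, 7 of 72 (9.72%) of the higher and 2 of 82 (2.44%) of the lower genes. The TATA box TATAAA was in 11.5% of all, 5.61% of measured, 6 of 72 (8.33%) and 5 of 82 (6.10%), and the TEAD motif GGAATG was in 14.03%, 10.98%, 9 of 72 (12.5%) and 16 of 82 (19.5%). The TEAD letters of FLG overlap its AP-1 motif. A match describes the letters of the window and is not a binding site. Of the genes named below by size of difference, 12 of the 16 high and 8 of the 12 low ones had an entry. KRT19, FAM83A, UNC5B, CRYAB, CYP1B1, LGR5, COL3A1 and CADM1 are named without one.

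The first question was where along the escalation S3 cells occurred. They made up 14.2% of the listed cells of T10 (146 of 1030, 95% interval 12.1 to 16.5), 23.3% of T20 (149 of 640, 20.1 to 26.8), 24.1% of T40 (221 of 918, 21.3 to 26.97) and 7.91% of T80 (72 of 910, 6.24 to 9.86). Each dose is 1 library, so these intervals describe the libraries and not the doses. No S3 cell was listed in C, T1, T2.5, T5, T160 or T320, where counts of 0 among 453, 1223, 760, 398, 1348 and 560 listed cells allow shares of up to 0.662%, 0.245%, 0.395%, 0.754%, 0.223% and 0.536%, taking 3 cells as the limit of a count of 0. In T10 and T20 the other listed cells were in S2 (688 and 417 cells) and S4 (196 and 74), and in T40 and T80 they were in S4 (697 and 838). S3 was thus set against a different mix of states in the lower and the higher pair of doses. S3 cells were 7.35%, 10.2%, 10.6% and 3.18% of all cells of T10, T20, T40 and T80, listed or not.

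**Figure D1:**
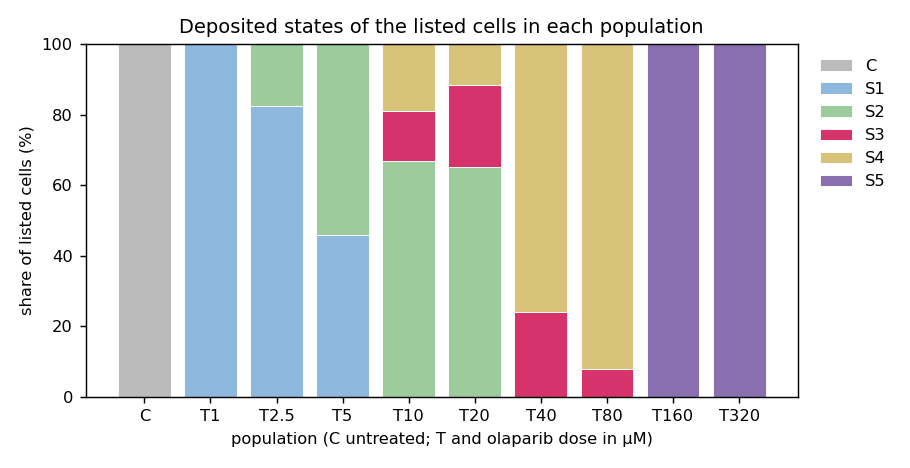
Stacked bars give the percent of listed cells in each deposited state, with the populations in order of dose on the x axis. S3 appears in T10 (14.2%), T20 (23.3%), T40 (24.1%) and T80 (7.91%) and in no other population.

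Of the S3 cells, 48 had a barcode that also occurred in another library, 18 of them shared it with a listed cell, and no 2 S3 cells of different libraries had 1 barcode. S3 held a median of 8.07% mitochondrial UMIs in T10, 7.31% in T20, 11.1% in T40 and 12.3% in T80. The median was 5.79%, 5.35%, 7.90% and 8.84% in S4 of the same libraries, and 8.82% and 8.05% in S2 of T10 and T20. S3 was thus above S4 in all 4 libraries and below S2 in T10 and T20, and the part of this in the gene differences was not tested. Labelled as epithelial, the S3 cells held KRT8, KRT18, CLDN4, DSP and SPINT2 transcripts in every library, while EPCAM, the usual epithelial surface marker, was at 6.27, 7.896, 0 and 0 CPM in T10, T20, T40 and T80. The 3 endothelial markers in the matrix (CDH5, KDR and VWF) were listed at 0 in all 4 S3 groups, and the leukocyte marker CD68 stood at 0, 0, 3.62 and 4.03 CPM. The mesothelial markers UPK3B, PDPN and LRRN4, 3 of 6 on that list, summed to 65.8, 105 and 32.6 CPM in S3 of T10, T20 and T40 and were listed at 0 in T80. UPK3B was at 37.6, 43.4, 18.1 and 0 CPM, PDPN at 28.2, 43.4, 14.5 and 0 CPM and LRRN4 at 0, 17.8, 0 and 0 CPM. Over the other groups that sum ran from 5.595 to 76.6 CPM, and its part in the differences was not tested.

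The second question was how far S3 differed from its neighbours in the same library. Of the genes measured in T10, 212 of 4476 (4.74%) were higher in S3 and 226 (5.05%) lower. In T20 it was 207 of 4020 (5.15%) and 233 (5.80%), in T40 209 of 4063 (5.14%) and 182 (4.48%), and in T80 332 of 3968 (8.37%) and 237 (5.97%). With TMM scaling it was 191 higher and 215 lower in T40 and 307 and 309 in T80, so which direction held more genes there depended on the scaling. Against S2 alone, 226 (5.05%) were higher and 223 (4.98%) lower in T10, and 220 (5.50%) and 229 (5.72%) in T20. Against S4 alone, 401 of 4546 genes (8.82%) were higher and 326 (7.17%) lower in T10, and 377 of 4129 (9.13%) and 361 (8.74%) in T20. In T10 and T20, S3 was therefore nearer to S2 than to S4 by this count. S4 held fewer UMIs, 452679 in T10 and 247601 in T20, beside 1436786 and 1467394 in S2. Fewer UMIs give more counting error, and its part in this count was not tested. As root mean square of the log2 difference over 6099 genes, S3 of T10 lay 0.68 from S2 and 0.57 from S3 of T40, and S3 of T20 lay 0.67 from S2 and 0.58 from S3 of T40. S3 of T20 was also 0.655 from S1 of T2.5. That is nearer than to S2 of its own library (0.667) or S3 of T80 (0.688), and level with S3 of T10 (0.656). S3 of T40 was 0.62 from S4 of its own library, and S3 of T80 was 0.75 from S4 and 0.57 from S3 of T40. The group nearest to each of the 4 S3 groups was another S3 group, from another library. The states were set over all libraries, presumably from the same transcripts, so this nearness is no check of the state.

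The differences in T10 and T20, which share no cells, fell on many of the same genes. Of 3610 genes measured in both, 101 were higher in S3 of both libraries, which is 73.7% of the 137 higher in T10 and 54.6% of the 185 higher in T20. Another 113 were lower in both, 66.5% of 170 and 57.9% of 195, and no gene was higher in one and lower in the other. Across these genes the differences correlated with a Pearson's r of 0.80 and a Spearman's rho of 0.67, given as a description of genes that share libraries and depth. Because the states were set over all libraries, this is no independent check of the state. T40 and T80 were not used to choose the 101 and 113 genes, but their S3 cells were presumably labelled from the same transcripts. The values there are therefore no independent check either. A gene under 50 CPM in the other cells was measured there only through S3. Of the 101, 90 were measured in T40, where 69 were higher and none lower (median 1.83, beside 0.02 over all genes), and 79 in T80, where 63 were higher and 1 lower (median 1.80, beside 0.12). Of the 113, 88 were measured in T40, with 57 lower and 1 higher (median -1.26), and 81 in T80, with 54 lower and 2 higher (median -1.69). In all 4 libraries, 54 genes were higher and 46 lower among 3105 measured in each. Against S4 alone, the one reference state present in every library, 92 were higher and 72 lower in all 4 among 3141.

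**Figure D2:**
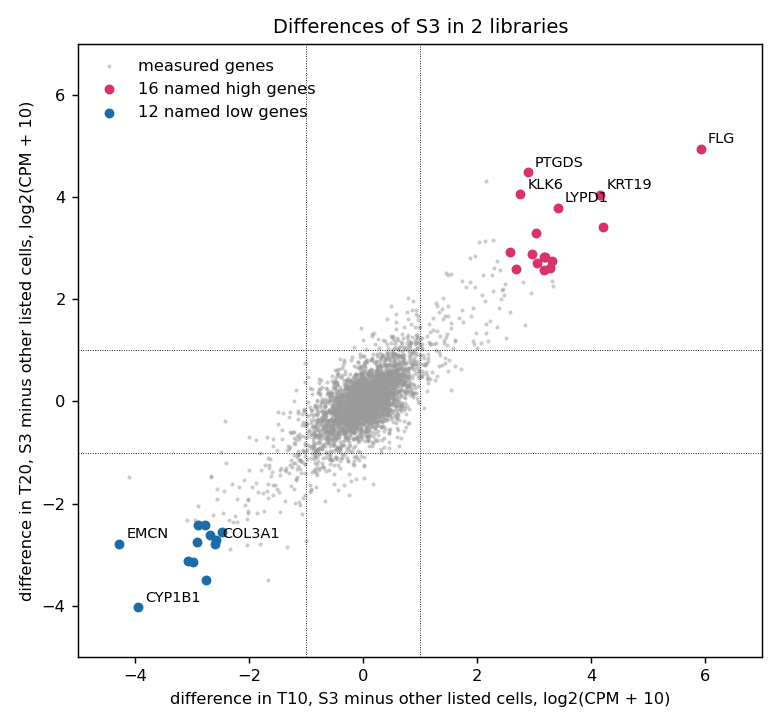
Each point is 1 of 3610 genes, with its difference between S3 and the other listed cells in T10 on the x axis and in T20 on the y axis, both in log2(CPM + 10). Dotted lines mark 2-fold; the 16 named high genes lie at the upper right and the 12 named low genes at the lower left, the directions the naming rule required.

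The genes named first are the 16 with the highest and the 12 with the lowest differences shared by T10 and T20. The choice used those 2 libraries, so their values there are given as a description. Keratin-associated and epithelial transcripts led the high set. FLG codes for filaggrin, a protein that bundles keratin filaments in the outer skin. In S3 of T10, T20, T40 and T80, FLG was at 721, 389, 349 and 113 CPM, and it was 2.12, 2.92, 4.19 and 2.71 CPM in the other listed cells. The level in S3 was 340.4-fold (131 to 1259.9) higher in T10, 133-fold (56.2 to 415) in T20, 83.3-fold (41.4 to 196) in T40 and 41.6-fold (18.5 to 106) in T80. FLG thus stood far above the neighbouring cells in each library, on a level that was lowest in T80. It was 41.2 to 133 CPM in C and S1, so S3 of T10, T20 and T40 lay above those 4 groups and S3 of T80 within their range.

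KRT19, a small type I keratin of simple epithelia, was far above the cells of other states in each library. S3 held KRT19 at 298, 329.7, 261 and 479.9 CPM in T10, T20, T40 and T80, and the cells of other states were at 7.41, 10.5, 4.19 and 16.6 CPM. That is 40.2-fold (22.8 to 76.3) higher in T10, 31.4-fold (19.3 to 54.3) in T20, 62.2-fold (30.7 to 147) in T40 and 28.9-fold (20.5 to 41.2) in T80. The 4 S3 groups did not overlap with C and S1, at 30.5 to 41.2 CPM, or with S2, S4 and S5, of which the highest was 16.6 CPM. KRT8 and KRT18 pair as the keratin filament of simple epithelia. The S3 level of KRT8 was 1623, 1800.3, 1004 and 577 CPM in T10, T20, T40 and T80, and the other listed cells were at 422, 497, 244 and 128 CPM. KRT18 stood at 924, 736, 688 and 706 CPM in S3 of T10, T20, T40 and T80, and it was 211, 166, 235 and 183 CPM in the other listed cells. Both were at least 2-fold higher in the 4 libraries, though S3 of T80 was below C and S1 for KRT8 (919 to 1491 CPM). KRT8 and KRT18 overlap on opposite strands of chromosome 12 and have many processed pseudogenes, so their reads may be split or shared. CLDN4, a tight junction claudin, stood at 194, 319.8, 313 and 492 CPM in S3 and 36.5, 27.4, 27.2 and 25.1 CPM in the other cells. DSP, the plaque protein of desmosomes, stood at 266, 162, 235 and 262 CPM in S3 and 80.97, 65.9, 31.4 and 31.5 CPM in the others, below the 278 to 381 CPM of C and S1. FAM83A, a gene linked to growth factor signalling, was at 213, 128, 70.6 and 0 CPM in S3 and 2.12, 2.92, 3.14 and 0 CPM in the others.

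The epithelial list has 16 genes, of which 13 are in the matrix. All 7 measured members were higher in S3 of T10 (median 2.08, beside 0.03 over all genes, of which 4.74% were higher), 6 of 6 in T20 (2.22), 7 of 7 in T40 (2.57) and 7 of 7 in T80 (2.71). KRT8, KRT18, KRT19, CLDN4, DSP and SPINT2 were among them in each library. SPINT2, which codes for an inhibitor of membrane serine proteases, was at 705, 446, 326 and 298 CPM in S3. The summed list ran from 2916 to 4136 CPM over the 4 S3 groups, from 2241 to 2933 CPM over C and S1, and from 418 CPM over the other groups. KRT7 at 15.7, 17.8, 3.62 and 4.03 CPM and CLDN3 at 6.27, 25.7, 0 and 4.03 CPM were low in S3, CDH1 is not among the genes of the matrix, and the list's counts rest on members that passed the filter on low values. KRT19 and CLDN4 passed it only through S3 in each library, as did CD24 in T10 and T40, DSP and SPINT2 in T40 and T80, and ELF3 in T80.

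**Figure D3:**
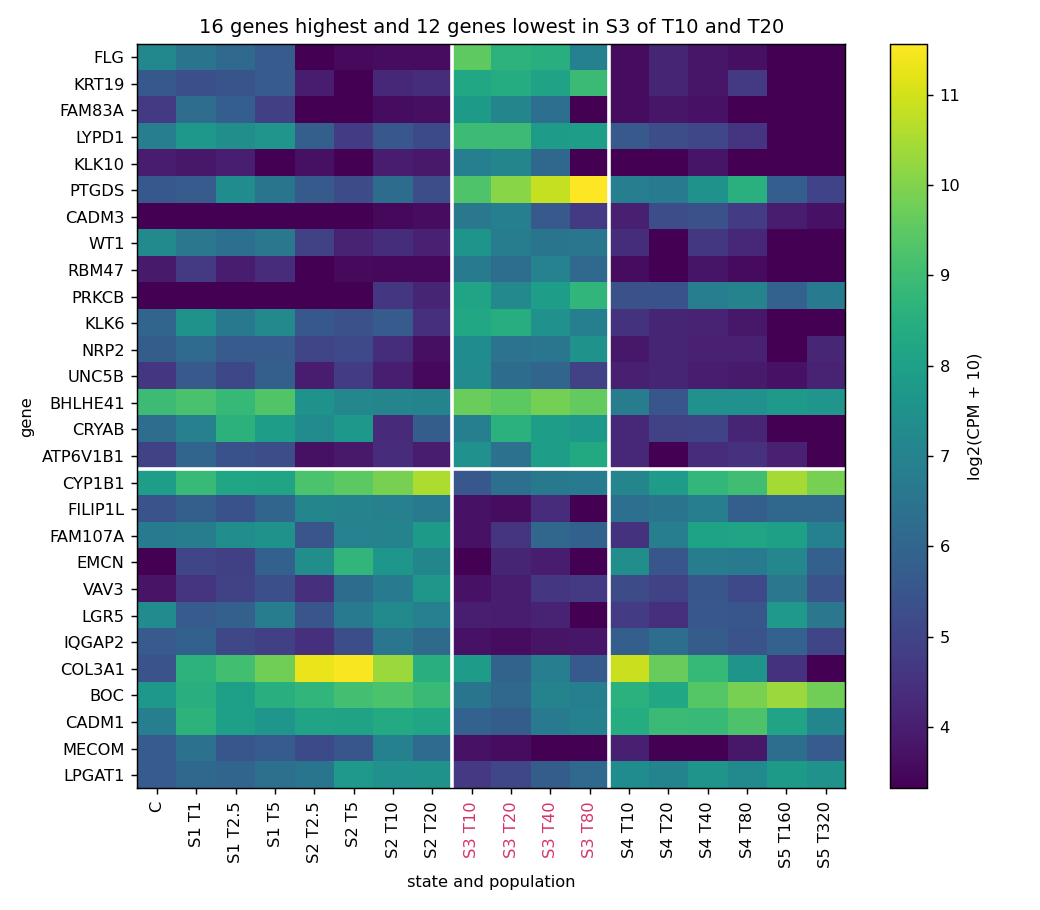
Colour gives log2(CPM + 10) of the 16 high genes (top) and the 12 low genes (bottom) in 18 groups of cells, by state and population, with the 4 S3 groups between the vertical lines. FAM83A and KLK10 are listed at 0 in S3 of T80, and PTGDS is highest there, at 3013 CPM.

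Kallikreins are secreted serine proteases encoded in 1 cluster on chromosome 19 and are known to be abundant in serous ovarian carcinoma. In S3 of T10, T20, T40 and T80, KLK6 was at 291, 342, 168 and 109 CPM, and the cells of other states were at 34.9, 11.1, 7.86 and 4.41 CPM. S3 of T10 and T20 lay above every other group, and S3 of T40 and T80 overlapped with C and S1 (54.2 to 173 CPM). S3 held KLK10 at 107, 128, 57.9 and 0 CPM in T10, T20, T40 and T80, and the other listed cells were at 4.23, 4.08, 3.67 and 0 CPM. KLK10 did not exceed 6.28 CPM in C and S1, so its level in T10, T20 and T40 was not that of the earlier populations. KLK5 was at 75.2, 76.99, 41.6 and 0 CPM and KLK11 at 37.6, 43.4, 21.7 and 0 CPM in S3. KLK5, KLK10 and KLK11 were thus listed at 0 in S3 of T80, where KLK6 was still found. They were listed at 0 in S4 of T80 as well, and KLK10 was at 0 in the unlisted cells of that library too. Of the kallikrein and secreted serous list, 4 of 10 measured members were higher and none lower in T10 (median 0.68), 7 and 1 of 10 in T20 (1.31), 5 and 0 of 7 in T40 (1.38), and 5 and 1 of 7 in T80 (1.86). Over all measured genes, 4.74%, 5.15%, 5.14% and 8.37% were higher in T10, T20, T40 and T80. KLK6 passed the filter on low values only through S3 in each library, and KLK10 in T10, T20 and T40. So did KLK5 in T10 and T20, SNCG in T20 and T80 and SPP1 in T40 and T80, so these could only be higher. CP passed only through the other cells in T10 and T20. SPP1, which codes for osteopontin, was at 263, 308, 232 and 294 CPM in S3 and was higher in T20, T40 and T80. CRABP2, a carrier of retinoic acid, was at 1542, 1931, 1287 and 1266 CPM and was higher in the same 3 libraries.

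Among secreted and surface proteins, PTGDS makes prostaglandin D2 and is also secreted as a carrier of small lipids. The S3 level of PTGDS was 614, 1079.8, 1811 and 3013 CPM in T10, T20, T40 and T80, and it was 74.6, 38.5, 172 and 363 CPM in the other listed cells. S3 exceeded the other cells by 8.23-fold (6.59 to 10.3) in T10, 28.1-fold (21.7 to 36.8) in T20, 10.5-fold (9.29 to 11.98) in T40 and 8.295-fold (7.54 to 9.12) in T80. The level in S3 was higher at each dose than at the one before, and it was higher in T80 than in T10 among the other cells as well. LYPD1 codes for a membrane-anchored protein of the Ly6 family. LYPD1 stood at 495, 493, 226 and 238 CPM in S3 of T10, T20, T40 and T80, and the cells of other states were at 37.6, 26.2, 23.6 and 13.9 CPM. The S3 groups were above C and S1, at 105 to 201 CPM. NRP2, a co-receptor for semaphorins and VEGF, was at 150.4, 78.96, 83.2 and 177 CPM in S3 and 9.53, 3.499, 6.81 and 6.78 CPM in the others. UNC5B, a netrin receptor, was at 147, 65.1, 54.3 and 20.2 CPM in S3 and 6.35, 2.33, 5.76 and 5.09 CPM in the others. CADM3, an adhesion molecule mostly known from neurons, was at 87.7, 107, 39.8 and 16.1 CPM in S3 against 2.65, 5.83, 30.9 and 17.3 CPM, so it separated S3 in T10 and T20 and was not measured in T40 and T80. ANXA4, a calcium-dependent membrane-binding annexin, was at 241, 239, 209.9 and 198 CPM in S3, a narrow range above the highest other group at 87.5 CPM. WNT10A, a Wnt ligand, was at 72.1, 120.4, 105 and 117 CPM in S3 and at most 22.2 CPM in the other 14 groups. CAPG, a protein that caps actin filaments, was at 97.1, 86.9, 47.05 and 56.5 CPM in S3 and at most 20.2 CPM elsewhere. HLA-DMA, which helps load peptides on MHC class II, was at 93.995, 63.2, 36.2 and 52.4 CPM in S3 and at most 11.1 CPM elsewhere.

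Transcription factors and signalling genes were also in the high set. WT1 is a zinc finger factor used as a marker of serous carcinoma. In S3 of T10, T20, T40 and T80, WT1 was at 182, 103, 81.4 and 84.7 CPM, and the other listed cells were at 11.1, 5.83, 15.2 and 8.82 CPM. S3 overlapped with C and S1 (69.8 to 139 CPM) and was above S2, S4 and S5. Of the serous ovarian lineage list, which holds WT1, 1 was higher and 3 lower of 5 measured genes in T10 (median -1.47). In T20 it was 2 and 3 of 6 (-0.32), and 1 and 1 of 3 in both T40 (0.53) and T80 (0.21). Over all measured genes, 4.74%, 5.15%, 5.14% and 8.37% were higher and 5.05%, 5.80%, 4.48% and 5.97% lower in T10, T20, T40 and T80. WT1 passed the filter only through S3 in each library, and EMX2 and MECOM only through the other cells of T10 and T20. BHLHE41 is a repressor of the circadian clock loop. S3 held BHLHE41 at 815, 709, 907 and 750.2 CPM in T10, T20, T40 and T80, and it was 119, 109, 171 and 169.9 CPM in the other listed cells. Its 4 S3 groups were above the 452 to 629 CPM of C and S1 and above all other groups. Part of SSPN overlaps it on the opposite strand. PRKCB, a protein kinase C, was listed at 0 in C and S1. The S3 level of PRKCB was 273, 136, 233 and 419 CPM in T10, T20, T40 and T80, and the cells of other states were at 18.5, 11.7, 104 and 119.7 CPM. The gap was 14.7-fold (9.83 to 22.5) in T10 and 2.24-fold (1.78 to 2.81) in T40, where S4 had the gene at a higher level. RBM47, an RNA-binding regulator of splicing and mRNA stability, was at 93.995, 69.1, 116 and 60.5 CPM in S3 and 1.59, 1.17, 3.67 and 1.696 CPM in the others. CRYAB, a small heat shock protein, was at 107, 377, 235 and 202 CPM in S3 and 9.53, 40.8, 22.01 and 8.14 CPM in the others, within the range of C and S1 (66.2 to 381 CPM) in all 4 libraries. ATP6V1B1, a subunit of the proton pump of acid-secreting epithelia, was at 169, 76.99, 229.8 and 311 CPM against 10.1, 4.67, 10.5 and 12.5 CPM.

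The low set held genes of several roles, with CYP1B1 first. It codes for a cytochrome that oxidises oestrogens and polycyclic compounds. CYP1B1 stood at 37.6, 71.1, 90.5 and 92.8 CPM in S3 of T10, T20, T40 and T80, and the other listed cells were at 729, 1311, 431 and 519 CPM. The other cells exceeded S3 by 19.4-fold (11.1 to 37.6) in T10, 18.4-fold (13.3 to 26.4) in T20, 4.76-fold (3.58 to 6.47) in T40 and 5.597-fold (3.72 to 8.86) in T80. No S3 group reached the 232 to 458 CPM of C and S1. EMCN, a surface sialomucin, was at 0, 7.896, 5.43 and 0 CPM in S3 and 184, 113, 104 and 98.3 CPM in the others, and in C it was listed at 0. BOC, a co-receptor of hedgehog ligands, was at 81.5, 57.2, 119 and 109 CPM in S3 and 540.4, 433, 666 and 935 CPM in the others. CADM1, an adhesion molecule, was at 50.1, 43.4, 92.3 and 113 CPM in S3 and 324, 305, 455 and 608 CPM in the others. BOC was below all 14 other groups in each of the 4 S3 groups, the lowest other group being at 200.1 CPM. CADM1 was below the lowest other group (104 CPM) in T10, T20 and T40 and above it in T80. EBF1, a factor of mesenchymal and B cell differentiation, was at 34.5, 23.7, 23.5 and 16.1 CPM in S3, and no other group was below 76.8 CPM. WLS, which carries Wnt ligands to the cell surface, was at 109.7, 49.4, 138 and 101 CPM in S3, and no other group was below 275 CPM. PCDH7, a protocadherin, was at 87.7, 45.4, 97.7 and 141 CPM in S3, and no other group was below 160.1 CPM.

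FILIP1L, FAM107A, VAV3, LGR5, IQGAP2 and MECOM were at 1.97 to 13.8 CPM in S3 of T10 and T20 and at 54.2 to 200.0 CPM in the other cells of these libraries. LGR5 is a receptor for R-spondins and marks stem cells of several epithelia, and MECOM is a factor of the Mullerian lineage. In T40 and T80, VAV3, LGR5, IQGAP2 and MECOM were not measured, since neither S3 nor the other cells reached 50 CPM. LPGAT1, an acyltransferase of phospholipids, was at 15.7, 23.7, 43.4 and 60.5 CPM in S3 and 165, 169, 184 and 145 CPM in the others.

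TGF-beta targets were low in S3 in each library. Of the 18 genes on the list, 7 of 11 measured were lower in T10 and none higher (median -1.30, beside 0.03 over all genes, of which 5.05% were lower). In T20 it was 7 of 11 and none (-1.39), in T40 7 of 10 and none (-1.51), and in T80 5 of 8 lower with LTBP1 and SKIL higher (-1.65). ID3, an inhibitor of basic helix-loop-helix factors, was at 109.7, 128, 229.8 and 161 CPM in S3 and 372, 503, 631 and 585 CPM in the others. It was below the lowest other group, at 361 CPM, in all 4 libraries. TGFBI, a secreted matrix protein, was at 3.13, 11.8, 43.4 and 4.03 CPM in S3 and 218, 51.3, 279 and 84.1 CPM in the others, and it was listed at 0 in C and S1. CYR61, a matricellular protein, was at 72.1, 172, 545 and 40.3 CPM in S3 and 373, 669, 1671 and 154 CPM in the others. THBS1, which codes for thrombospondin, was at 28.2, 15.8, 19.9 and 0 CPM in S3 and 146, 86.3, 121 and 25.1 CPM in the others. ID3 was thus low against every earlier population too, while TGFBI was low against the dose-matched cells and not against C.

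Several contractile and mesenchymal genes were low as well. ACTA2, the smooth muscle actin, was at 81.5, 73.04, 302 and 92.8 CPM in S3 and 455, 604, 1509 and 1287 CPM in the others. TAGLN, an actin-binding protein, was at 175, 336, 977 and 363 CPM in S3 and 907, 1052, 2664 and 1342 CPM in the others. VIM, the mesenchymal filament protein vimentin, was at 852, 902, 1042 and 1198 CPM in S3 and 1701, 1393, 1908 and 2360.0 CPM in the others, a difference under 2-fold in each library. FN1, which codes for fibronectin, was among the most abundant transcripts of the state, at 5825, 6826, 5257 and 4428 CPM in S3. It was higher in T20, and it was 390.2 CPM in C. On the mesenchymal list, 5 of 14 measured genes were lower and none higher in T10 (median -0.73), 5 and 1 of 14 in T20 (-0.69), 6 and 0 of 16 in T40 (-0.87) and 8 and 1 of 15 in T80 (-1.27). Over all measured genes, 5.05%, 5.80%, 4.48% and 5.97% were lower, with medians of 0.03, 0.02, 0.02 and 0.12. On the cytoskeleton and motility list, 2 of 21, 2 of 20, 1 of 21 and 3 of 21 measured genes were lower, TAGLN among them each time. The summed mesenchymal list ran from 9906 to 13859 CPM over the S3 groups and from 5775 to 23296 CPM over the others, so S3 overlapped with them. FN1 was the largest member of that sum in each S3 group. S3 therefore held mesenchymal transcripts beside the epithelial ones.

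Among collagens and laminins, COL3A1 codes for type III collagen. In S3 of T10, T20, T40 and T80, COL3A1 was at 226, 51.3, 105 and 40.3 CPM, and it was 1419, 413, 453 and 181 CPM in the other listed cells. LAMA4, a laminin chain of vessel and fat basement membranes, was at 3.13, 17.8, 21.7 and 20.2 CPM in S3 and 103, 129, 175 and 181 CPM in the others, and at 3.45 to 20.03 CPM in C and S1. SPON1, a secreted matrix protein, went the other way, at 185, 197, 103 and 24.2 CPM in S3 and 15.3, 37.3, 9.96 and 9.84 CPM in the others. On the matrix and basement membrane list, 6 of 16 measured genes were lower and 1 higher in T10 (median -0.33), 9 and 2 of 14 in T20 (-1.24), 9 and 4 of 18 in T40 (-1.06) and 8 and 3 of 14 in T80 (-1.25). BGN, which codes for biglycan, was among the higher genes in T20, T40 and T80. Over all measured genes, 5.05%, 5.80%, 4.48% and 5.97% were lower and 4.74%, 5.15%, 5.14% and 8.37% higher. The fibroblast list, with 5 of 10 genes in the matrix, summed to 92.8 to 604.7 CPM over the S3 groups and to 81.1 to 3811 CPM over the others.

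**Figure D4:**
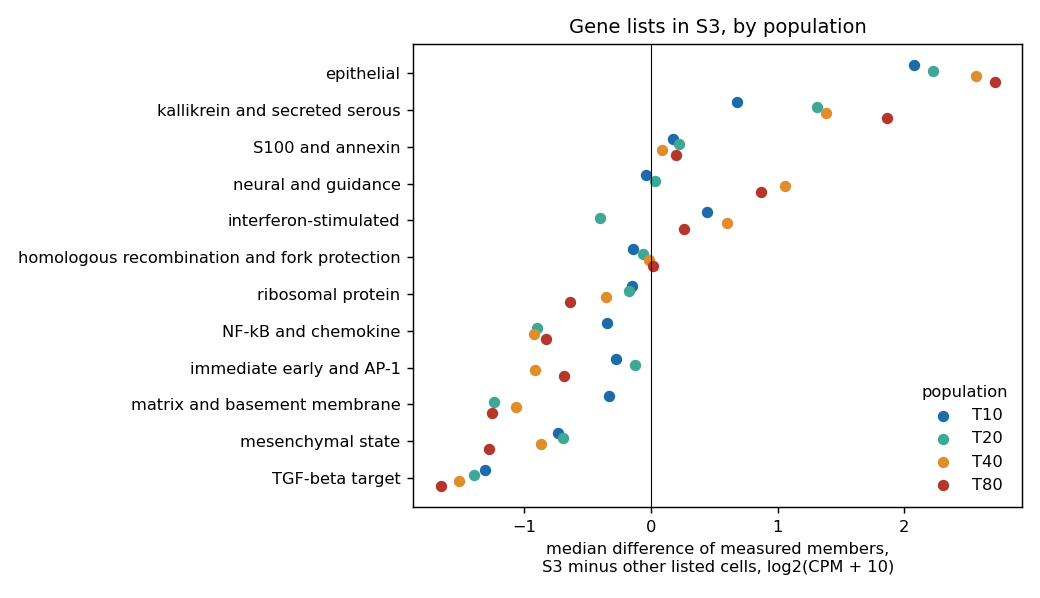
Points give the median difference of the measured members of 12 gene lists, S3 minus the other listed cells of the library, in log2(CPM + 10), 1 colour for each population. The epithelial list lies between 2.08 and 2.71 and the TGF-beta list between -1.65 and -1.30.

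Ribosomal protein genes were slightly lower, with medians of -0.14, -0.17, -0.36 and -0.63 over 79, 80, 80 and 80 genes in T10, T20, T40 and T80, and 7 passed 2-fold, all lower and in T80, where it was 15 with TMM scaling and 10 with DESeq2 size factors. Of NF-kB and chemokine genes, 2 of 6 were lower in T10 (median -0.35), 2 of 6 in T20 (-0.89), 4 of 8 in T40 (-0.92) and 3 of 7 in T80 (-0.83), with none higher. Neural and guidance genes had 3 higher and 1 lower of 10 in T10 (-0.04), 2 and 2 of 9 in T20 (0.03), 5 and 1 of 9 in T40 (1.06) and 4 and 2 of 8 in T80 (0.87), with NRP2 higher and MAP2 lower in each. Immediate early genes were lower in T40, where ATF3, EGR1, EGR2, EGR3, FOSB, KLF2 and ZFP36 made 7 of 18 (median -0.92), while 0 of 11, 1 of 11 and 1 of 10 were lower in T10, T20 and T80. Interferon-stimulated genes split. IFI27, a mitochondrial interferon-induced protein, was at 141, 302, 57.9 and 28.2 CPM in S3 and 52.4, 72.3, 22.5 and 8.82 CPM in the others. ISG15, a ubiquitin-like modifier, was at 25.1, 53.3, 23.5 and 8.07 CPM in S3 and 60.9, 408, 43.5 and 59.7 CPM in the others. The list had 1 higher and 3 lower of 16 in T10 (0.44), 1 and 7 of 19 in T20 (-0.40), 2 and 0 of 10 in T40 (0.60) and 3 and 1 of 8 in T80 (0.26). Against S4 alone, T20 had 3 higher and 1 lower of 15 (0.27), beside 9.13% and 8.74% over all measured genes. For the other counts given here, the shares over all measured genes were 4.74%, 5.15%, 5.14% and 8.37% higher in T10, T20, T40 and T80. The shares lower were 5.05%, 5.80%, 4.48% and 5.97%. Growth factor binding proteins IGFBP2 at 479, 919.9, 356 and 419 CPM and IGFBP5 at 464, 347, 451 and 411 CPM stood against 363, 600.0, 125 and 159 and 851, 641, 248 and 638 CPM in the others.

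The target of the drug and the lineage genes were read whatever their values. PARP1 was at 107, 98.7, 114 and 105 CPM in S3 and 205, 189, 122 and 164 CPM in the others, below 2-fold in all 4 libraries, and below the 270.1 to 402 CPM of C and S1. BRCA2 was at 15.7, 1.97, 10.9 and 16.1 CPM, too low to be measured. Of the homologous recombination and fork protection list, 4 or 5 of 26 genes were measured in each library and none passed 2-fold (medians -0.14, -0.06, -0.01 and 0.02). QPRT, an enzyme of NAD synthesis from tryptophan, was at 432, 484, 261 and 371 CPM in S3 and 221, 190.1, 119 and 96.99 CPM in the others and was higher in T20, T40 and T80. PAX8, a Mullerian lineage factor, was at 201, 318, 244 and 181 CPM in S3 and 203, 229, 166 and 156 CPM in the others. SOX17, another such factor, was at 31.3, 23.7, 32.6 and 8.07 CPM in S3, 25.4, 37.9, 7.34 and 3.39 CPM in the others and 131 to 382 CPM in C and S1, so it was below C and S1 and not separated from its neighbours in T10 and T20. WFDC2, the secreted serous marker HE4, was at 194, 274, 490.4 and 198 CPM in S3 and 554, 711, 1317 and 1052 CPM in the others and was lower in all 4. EMX2, on the serous ovarian lineage list as well, was at 25.1 and 29.6 CPM in S3 of T10 and T20 and at 128 and 87.2 CPM in S2. CD44, a hyaluronan receptor, was at 0, 21.7, 107 and 20.2 CPM in S3 and 20.1, 44.9, 416 and 183 CPM in the others. MKI67, a marker of cycling cells, was at 6.27, 5.92, 12.7 and 4.03 CPM in S3 and 4.76, 6.997, 6.81 and 4.75 CPM in the others. All of these are listed cells, which may have been chosen as G1 cells.

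To place S3 against the start of the escalation, each gene's S3 levels in T10 and T20 were set beside the 4 groups of C and S1 and the 10 groups of S2, S4 and S5. Of the 101 genes higher in both libraries, 69 were above all C and S1 groups in both, 29 overlapped with them and 3 were below. Of these 101, 88 were above all 10 S2, S4 and S5 groups and 65 above all 14. Of the 113 lower genes, 56 were below all C and S1 groups, 55 overlapped and 2 were above. Of the same 113, 57 were below all S2, S4 and S5 groups and 32 below all 14. The 10 groups include S2 and S4 of T10 and T20, the cells against which the 101 and 113 genes were chosen. The counts against these groups were thus partly set by the choice. Shares over all measured genes were not computed for C and S1 or for S2, S4 and S5, so these counts have no background beside them. WT1, CRYAB and SPON1 overlapped with C and S1 and DSP was below them, while KRT19, PTGDS, BHLHE41, WNT10A and ANXA4 were above every other group. With clone-name symbols left out, 3038 genes had at least 50 CPM in both of these S3 groups. Of them, 178 were higher in S3 of T10 and T20 than in every other group, 12 by at least 2-fold. Another filter, at least 50 CPM in every other group, held 1878 genes. Of those, 50 were lower in S3 of T10 and T20 than in every other group, 3 by at least 2-fold. These comparisons cross libraries, so state and library cannot be told apart in them.

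Several further genes of this kind were picked after their values were seen. MAL, a lipid raft protein of apical membranes, was at 78.3, 205, 219 and 315 CPM in S3 and 12.7, 19.8, 11.004 and 10.5 CPM in the others. FYN, a Src family kinase, was at 410.4, 184, 255 and 476 CPM in S3 and 68.8, 38.5, 32.5 and 34.6 CPM in the others. TIE1, a receptor best known from endothelium, was at 539, 351, 275 and 161 CPM in S3 and 114, 8.16, 25.2 and 18.7 CPM in the others, in cells where CDH5, KDR and VWF were listed at 0. CRB2, a polarity protein of apical membranes, was at 163, 132, 105 and 117 CPM against 21.2, 23.3, 9.96 and 2.71 CPM. ITGB4, the integrin of hemidesmosomes, was at 59.5, 65.1, 63.3 and 56.5 CPM against 4.23, 2.33, 20.96 and 18.7 CPM. CD74, the invariant chain of MHC class II, was at 56.4, 51.3, 128 and 101 CPM against 4.23, 10.5, 11.004 and 15.6 CPM, while HLA-DRA was at 0, 0, 18.1 and 4.03 CPM and HLA-DRB1 at 0, 0, 0 and 20.2 CPM in S3.

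Within S3, most cells held UMIs of some of the 16 high genes. These genes were chosen as high in S3 of T10 and T20, so the contrast with the other cells there follows from the choice. T40 and T80 were not used to choose them, but their cells were also labelled S3, presumably from the same transcripts. The contrast there is therefore no independent check either. Each cell was thinned to 1000 UMIs and shallower cells were left out, 17, 7, 17 and 2 S3 cells and 97, 29, 28 and 2 others in T10, T20, T40 and T80. Of the remaining S3 cells, 66.7% in T10, 55.6% in T20, 51.0% in T40 and 47.1% in T80 held UMIs of at least 3 of the 16 genes. Among the other listed cells the share was 0.762%, 0.433%, 1.94% and 1.68%. None of the 16 was found in 3.88%, 4.23%, 9.80% and 7.14% of S3 cells. The median number of these genes with a UMI was 3, 3, 3 and 2. KRT19 had a UMI in 19.4% of thinned S3 cells of T10 (interval 12.95 to 27.3) and in 26.1% of T20 (19.1 to 34.1), against 0.889% and 0.433% of the other cells. Before thinning, the shares were 32.2% and 42.3% in S3 and 1.47% and 3.26% in the others. FLG had a UMI in 42.6%, 27.5%, 17.6% and 11.4% of thinned S3 cells of T10, T20, T40 and T80, and PTGDS in 34.1%, 50.7%, 62.7% and 74.3%. The share of S3 cells with FLG was thus lower, and with PTGDS higher, at each dose than at the one before, each dose being 1 library.

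S3 also changed between T10 and T20. Of 4325 genes measured, 190 (4.39%) were higher in S3 of T20 and 427 (9.87%) lower, with a median difference of -0.23. Between the other listed cells of the same libraries, 116 genes were higher and 213 lower, with a median of -0.21. COL1A1, type I collagen, was at 241 CPM in S3 of T10 and 29.6 in T20, beside 779 and 83.97 in the other cells. MT1G, a metallothionein, was at 40.7 and 243 CPM in S3 and at 47.6 and 111 CPM in the others. ZNF90 and MTRNR2L3, at 436 and 296 CPM in S3 of T20 and 65.8 and 40.7 CPM in T10, were at 476 and 285 CPM and 64.6 and 73.6 CPM in the other cells, so these differences were shared by the libraries' other cells. HIST1H2BD, a replication-type histone, was at 3.13 and 78.96 CPM in S3 and 60.9 and 107 CPM in the others. GDF15, a stress-induced cytokine, was at 3.13 and 53.3 CPM in S3 and 46.6 and 30.9 CPM in the others.

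By chromosome, 12191 of the 12373 genes were placed with GENCODE 29. Genes of chromosome 16 had a median difference of 0.48 in T10 and T20 against S2, and of 0.42, 0.34, 0.24 and 0.26 against S4 in T10, T20, T40 and T80. In bins of 25 Mb, the first bin of chromosome 16 stood at 0.57 and 0.66 against S2 and at 0.72, 0.58, 0.44 and 0.48 against S4, while the last was between -0.11 and 0.28. Genes of chromosome 2 were at 0.06 and 0.03 against S2 and at 0.38, 0.47, 0.41 and 0.53 against S4. Those of chromosome 1 were at -0.34 in both libraries against S2, with 75.7% and 74.1% of genes below 0, and at -0.02, 0.02, 0.05 and 0.23 against S4. The last bin of chromosome 1 went the other way, at 0.19 and 0.38 against S2 and at 0.77, 0.68, 0.64 and 0.96 against S4. Lower against S4 in each library were chromosome 11, at -0.29, -0.32, -0.24 and -0.24, and chromosome 14, at -0.32, -0.49, -0.15 and -0.22. Chromosome 17 was at -0.15 and -0.23 against S2 and at 0.20, 0.14, 0.06 and 0.16 against S4. Its first bin went the other way against S2, at 0.335 and 0.87. The medians over all genes were 0.03 and 0.02 in T10 and T20 against S2. The many genes of a chromosome are not independent measurements.

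**Figure D5:**
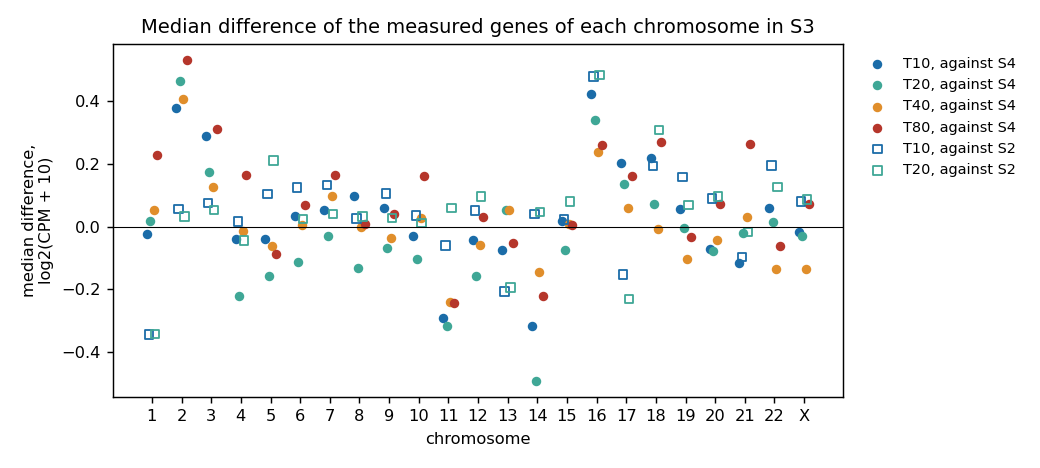
The y axis gives the median difference in log2(CPM + 10) over the measured genes of each chromosome, with filled circles for S3 minus S4 in 4 libraries and open squares for S3 minus S2 in T10 and T20. Chromosome 16 lies above 0 in all 6 comparisons, chromosome 2 against S4 between 0.38 and 0.53, and chromosome 1 against S2 at -0.34.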

How the data were processed

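Per the labels, cells of 10 populations were profiled by inDrop, 1 library each, and the matrix deposited by the authors holds UMI counts per gene and cell with no normalization. The deposited cell table gives counts of UMIs and of genes for each cell and the fraction of UMIs that is mitochondrial. Seurat 2.3.2 and the builds hg38 and GRCh38 are named per the submitters' processing notes. Alignment, counting, cell filters, the choice of listed cells and the state assignment were not given in the sources used here. UMI totals and gene numbers equalled the table for all 8240 listed cells, 7322 matched by name and 918 T40 cells after a change in the name's prefix.

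Counts were summed per state and library (groups of at least 50 cells) and scaled to CPM with Python 3.11.15. Genes were named as the 16 highest and 12 lowest by the smaller difference of T10 and T20, up to 10 above and 6 below every other group, the 5 highest and 5 lowest between S3 of T20 and T10, up to 3 members of each gene list, and fixed genes. The text mentions part of them, and clone-name symbols were left out. The members and the lists were chosen with earlier results of these data known. No doublet caller was run, so doublets that passed the authors' filters remain. Alternatives were edgeR 4.0.16 TMM factors, DESeq2 1.42.0 size factors, other filters, pseudocounts, cell weights and reference states, and each library left out. The steps were tested on simulated data.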

Additional observations from a re-analysis of the deposited data

Results flagged for a closer look

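AKR1B1, an aldo-keto reductase, went in opposite directions in different libraries. It was lower in S3 than in the other listed cells of T10 and T20 and higher in T40 and T80, with differences of -0.92 in T10, -1.10 in T20, 1.15 in T40 and 1.27 in T80. It stood at 138, 397, 242 and 218 CPM in S3 of T10, T20, T40 and T80 and at 269, 863, 104 and 84.8 CPM in the other cells. The other cells were mostly S2 in T10 and T20 and all S4 in T40 and T80, and the difference between libraries was not tested.

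KRT19 appeared in cells that the deposited table does not list. In the unlisted cells of T10, T20, T40 and T80 it was at 35.4, 61.5, 34.4 and 48.8 CPM, beside 26.1 CPM in the unlisted cells of C, and only T20 was more than 2-fold above C. FLG went the other way, at 41.8, 37.4, 15.5 and 14.1 CPM beside 177 CPM in C, and so did WT1 in T20, at 19.7 CPM beside 133 CPM. The states of these cells are not known here. The comparison with C at 2-fold was made for KRT19, FLG, FAM83A and LYPD1.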

How the results depend on the processing

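Of 334 alternative values for 40 named genes, 334 kept their sign and 2 went below 2-fold. These genes were named for large differences or extreme levels in T10 and T20. Leaving out either library gives back values used for naming, so the kept sign was largely set by the naming rule. The counts of genes depended on the filter for low levels. With no such filter, 543 genes were lower in T10, 324 higher and 475 lower in T20, 354 and 335 in T40, 545 and 618 in T80, and 153 higher and 229 lower in both T10 and T20. With at least 200 CPM, the counts were 45 and 53 in T10, 62 and 60 in T20, 54 and 57 in T40, 80 and 58 in T80, and 25 and 34 in both T10 and T20, where fewer genes were counted. Without the filter the higher genes were 36.6% of those called in T10 in place of 48.4%, and 46.9% in T80 in place of 58.3%. At 200 CPM, 1 gene list with at least 3 measured members in T10 and T20 had a median of -1 or lower in both in place of 2, since the fibroblast list was left with 2 and 1 members. The share of S3 cells with KRT19 was 32.2% in T10 and 42.3% in T20 without thinning, and 17.5% in T20 at 700 UMIs. Over all cells, S3 made up 7.35%, 10.2%, 10.6% and 3.18% of T10, T20, T40 and T80. TMM scaling moved the median of all genes in T80 from 0.12 to 0.02, its counts to 307 higher and 309 lower, and those of T40 to 191 and 215. The alternatives for T40 and T80, the chromosome references, the bins and the motifs were chosen after seeing the data. No paired analysis was possible because no result comes from a test; differences were taken within each library. S3 of T80, with 72 cells, limits what can be read for genes under about 50 CPM.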

Other observations

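NRF2 targets were mixed, with 1 higher and 1 lower of 12 measured in T10, 1 and 2 in T20 and 2 and 0 in T40 and in T80. Over all measured genes, 4.74%, 5.15%, 5.14% and 8.37% were higher and 5.05%, 5.80%, 4.48% and 5.97% lower. Such small counts are not read as a result about the list, and single genes of this and other lists are given by value. NQO1, a quinone reductase, was at 40.7, 77.0, 118 and 105 CPM in S3 of T10, T20, T40 and T80 and 112, 262, 184 and 171 CPM in the other listed cells. HMOX1, which breaks down haem, was at 62.7, 75.0, 72.4 and 173 CPM in S3 and 32.8, 28.6, 88.6 and 90.9 CPM in the others. SLC7A11, the cystine importer, was at 100.3, 61.2, 125 and 60.5 CPM in S3 and 36.0, 43.1, 40.9 and 19.7 CPM in the others, higher in T10, T40 and T80. ABCC3, an organic anion exporter, was at 122, 51.3, 61.5 and 28.2 CPM in S3 and 13.2, 15.7, 29.9 and 14.9 CPM in the others. SLC2A1, the glucose transporter GLUT1, was at 56.4, 166, 110.4 and 84.7 CPM in S3 and 37.0, 80.5, 29.3 and 20.7 CPM in the others, higher in T40 and T80. PFN1, which codes for the actin monomer-binding protein profilin, was among the abundant transcripts and was higher in T20 and T80, with differences of 0.58, 1.25, 0.80 and 1.24.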
